A study of Drosophila melanogaster with 18 samples.

Results

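Insulin was compared with no hormone after 4 h of culture of whole wing imaginal discs, larval epithelia from which the adult wing and part of the body wall develop. The comparison takes the 3 libraries of discs kept with insulin for 4 h and the 3 libraries of discs kept without added hormone for 4 h, so 6 of the 18 libraries of the series, and covers all 8524 genes that passed a filter on low values. Discs came from wild-type OregonR larvae at 96 h after egg laying. Every cultured group was held at 25 °C, about 15 discs in 500 µl, in Grace's medium to which penicillin, streptomycin and 5% fetal bovine serum were added. The serum is not described as stripped of hormones, so "no hormone" means that none was added. Bovine insulin was added to 5 µg/ml from an acidified water stock, and the labels name no vehicle for the control. Of the other groups of 3 libraries, discs with 20 nM 20-hydroxyecdysone (20E, the insect steroid hormone) for 4 h, discs with insulin for 9 h and uncultured discs frozen after dissection are used below for comparison. The series describes the 3 libraries of a group as biological replicates. No cultured group without hormone at 9 h is among the 18 libraries.

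Insulin binds the insulin receptor InR and acts through the kinase Akt and the TOR kinase complex. In flies, as in other animals, the pathway promotes nutrient uptake, protein synthesis and growth, and restrains the transcription factor FOXO, which raises InR and the translation inhibitor Thor (4E-BP) when nutrients are short. TOR also holds back autophagy and the transcription factor REPTOR. Wing discs make little of the insulin-like peptides themselves and receive them from the larval circulation, which is absent in culture.

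Values are FPKM (fragments scaled by transcript length in kilobases and by library size in M), and every change is a difference of group means of log2(FPKM + 1), insulin minus no hormone, with its standard error (SE). This scale understates the change of genes near or below 1 FPKM. A gene was called when its Benjamini-Hochberg adjusted p from limma was under 0.05. The 6 libraries were estimated to hold between 28.95 and 33.55 M fragments and listed between 7874 and 7983 genes at 1 FPKM or more. Disc genes marked the tissue: vg, which specifies the wing, averaged 46.7 ± 1.35 FPKM (SD, n = 3) without hormone and 47.5 ± 3.32 with insulin, and none of the 24 wing disc genes was listed at 0 in any of the 6 libraries. Summed markers of fat body were at most 0.369 FPKM and those of salivary gland at most 0.257 FPKM in each of the 6. Of 17 haemocyte markers, 6 passed the filter and are counted below, while Hml, NimC1 and eater did not pass. Gut protease markers set libraries apart: their sum over 27 genes was 1144, 8.16 and 37.6 FPKM in no hormone replicates 1 to 3 and 7.98, 348 and 245 FPKM in insulin replicates 1 to 3. These sums overlapped between the groups, and 1 of the 9 tested gut markers, Peritrophin-A, was called. In whole discs, fewer cells of a type and less RNA per cell cannot be told apart.

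Insulin moved a large part of the expressed genome, most genes by small amounts. Of 8524 tested genes, 2580 were called higher (30.3%) and 2355 lower (27.6%), together 57.9%. The median change over all tested genes was 0.0138, and 64.0% of called genes changed by less than 0.5. Changes of 2-fold or more on this scale were fewer and leaned upward: 318 genes rose by that much (3.73%) and 128 fell (1.5%). The ranges of the 2 groups did not overlap for 64.4% of all tested genes and for 96.6% of called genes. With so high a background, the share called in a gene group is read below against these percentages.

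**Figure D1:**
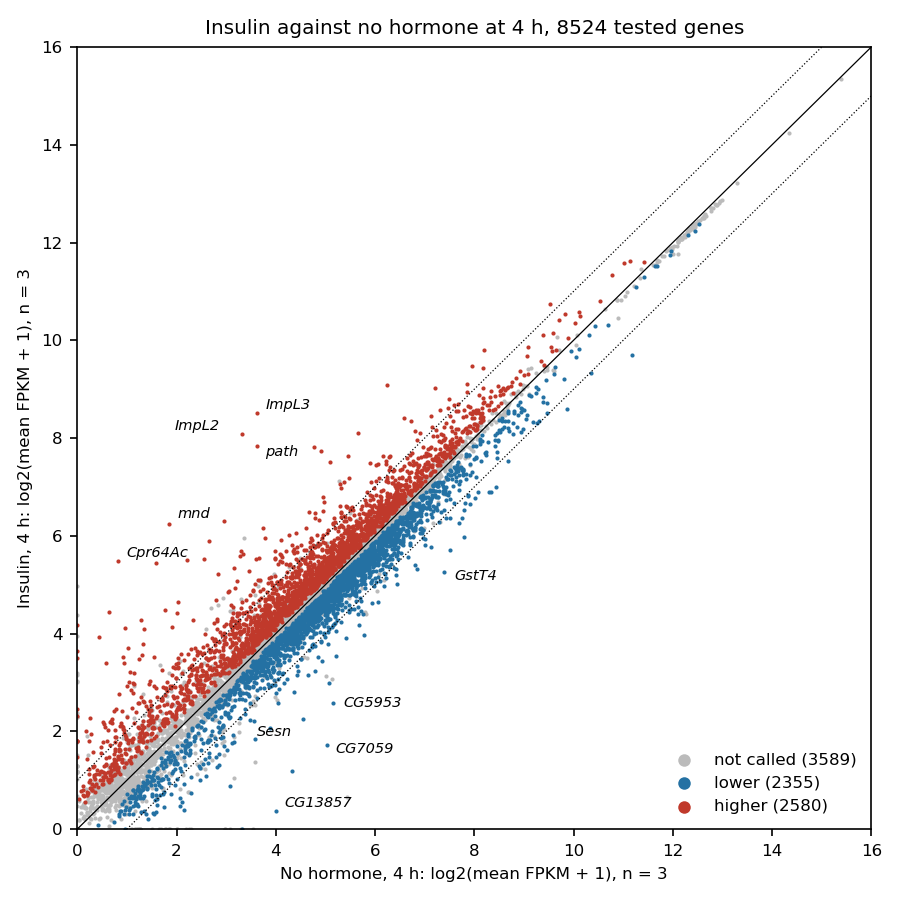
Mean level of each of the 8524 tested genes without hormone (x axis) and with insulin (y axis) at 4 h, both as log2(mean FPKM + 1) over 3 libraries. Red points were called higher (2580), blue points lower (2355) and grey points not called; dotted lines mark a 2-fold difference, and ImpL3, ImpL2, Cpr64Ac, mnd and path stand farthest above the diagonal among the labelled genes.

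On the log2(FPKM + 1) scale, and among genes that averaged 5 FPKM or more in the higher group, the largest rise of a protein-coding gene was that of ImpL3, the fly lactate dehydrogenase (Ldh, FBgn0001258), which turns pyruvate into lactate. It was at 11.6, 11.2 and 11.3 FPKM in the 3 libraries without hormone and at 501, 195 and 395 FPKM with insulin. Insulin replicate 2 held less than the other two but stood far above every control library. The change was 4.78 ± 0.33 (SE; limma adjusted p = 2.84e-08). Next was ImpL2 (FBgn0001257), a secreted protein that binds insulin-like peptides and dampens insulin signalling. It rose from 8.91, 9.57 and 8.26 FPKM to 314, 225 and 269 FPKM, a change of 4.76 ± 0.26 (limma adjusted p = 3.12e-09). The order depends on the pseudocount: with 0.1 in place of 1, the change was 4.88 for ImpL3, 4.89 for ImpL2 and 5.03 for Cpr64Ac, a cuticle gene described below.

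Amino acid carriers followed. The leucine transporter gene mnd (minidiscs, FBgn0002778) went from 2.34, 3.04 and 2.49 FPKM to 82.7, 77.7 and 63 FPKM, a change of 4.38 ± 0.30 (limma adjusted p = 2.53e-08). The amino acid transporter gene path (pathetic, FBgn0036007), known from studies of fly neuron growth, stood at 9.24, 13.2 and 11.6 FPKM without hormone and at 205, 260.3 and 218 FPKM with insulin, a change of 4.22 ± 0.30. For both genes every insulin library stood far above every control library. Ranges that did not overlap were a condition for naming the genes with the largest changes. The gene asparagine-synthetase, which makes asparagine from aspartate, rose from a mean of 1.98 ± 0.345 FPKM (SD, n = 3) to 42.2 ± 4.22 FPKM, a change of 3.86.

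The other rises among the 12 largest were in genes of varied roles. AcCoAS, which makes acetyl-CoA from acetate, rose from 3.65 ± 0.633 to 44.7 ± 9.24 FPKM (SD, n = 3; change 3.29). Inos, inositol-3-phosphate synthase, the entry to inositol synthesis, rose from 26.2 ± 3.35 to 226 ± 29.6 FPKM (SD, n = 3), a change of 3.06 with the lowest adjusted p among the 12 rises (limma, 5.71e-10). The activin-like ligand gene daw (dawdle), known in the fat body as a target of FOXO and in the fly as a regulator of metabolism, was at 0.422, 0.312 and 0.318 FPKM without hormone and at 22.4, 10.5 and 9.65 FPKM with insulin (change 3.39). CG10960, now named nebu, rose from 0.56 to 20.8 FPKM (change 3.57), CG11652, now named Dph1 and part of diphthamide synthesis, from 6.78 to 77.9 FPKM (change 3.32), and the transporter-family gene now named MFS14 from 0.955 to 16.3 FPKM (change 3.15). The cuticle gene Cpr64Ac was the most uneven: it read 1.08, 0.864 and 0.342 FPKM without hormone and 104, 9.38 and 17.8 FPKM with insulin. Its change was 3.98 and remained called at 3.01 without insulin replicate 1.

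Among the 12 largest falls, 2 were in genes of fatty acid breakdown. The gene pdgy (pudgy), an acyl-CoA synthetase that feeds fatty acid breakdown, fell from 32.3, 36.2 and 29.7 FPKM to 7.89, 6.31 and 6.72 FPKM, a change of -2.08 ± 0.10 (limma adjusted p = 8.4e-10). The carnitine palmitoyltransferase gene whd (withered), which lets fatty acids enter mitochondria for oxidation, fell from 19.1, 22.3 and 17.8 FPKM to 6.35, 5.96 and 5.57 FPKM (change -1.57 ± 0.11). Groups stood clear of each other for both genes, which the rule that chose them required. The mitochondrial citrate carrier gene sea (scheggia) fell from a mean of 219.7 to 61.6 FPKM (change -1.85).

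Sesn (sestrin), a stress-induced inhibitor of TOR, fell from 25.1, 21.6 and 20.2 FPKM to 4.24, 3.25 and 3.76 FPKM, a change of -2.29 ± 0.16 (limma adjusted p = 3.45e-08). The deepest falls were those of 2 genes known here by CG number only, whose roles were not examined. CG13857 went from 7.45, 22.6 and 15.3 FPKM to 0.251, 0.393 and 0.217 FPKM (change -3.53), and CG7059 from 20.8, 43.6 and 31.3 FPKM to 1.62, 3.14 and 2.19 FPKM (change -3.28). These genes are neighbours whose spans overlap in RefSeq's Release 6 annotation, and no hormone replicate 1 was the lowest control library for both. Whether fragments were assigned by strand is not given in the sources used here, so their values may share fragments. CG5953 fell with the least spread, from 34.7 ± 1.84 to 4.96 ± 0.368 FPKM (SD, n = 3), a change of -2.58 ± 0.08.

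The other falls were GstT4, a glutathione transferase (166 to 37.5 FPKM, change -2.11), the chitinase Cht5 (54 to 14.6 FPKM, change -1.84), the cytochrome P450 Cyp4d14 (13.8 to 3.17 FPKM, change -1.82), CG14253 (7.46 to 0.842 FPKM, change -2.20) and CG11686 (182 to 51 FPKM, change -1.82). All 24 of these protein-coding genes kept their direction and call in each of the 381 results computed, 1 per gene and other setting, with a limma adjusted p of at most 0.00971. The genes were chosen for large, called changes with ranges apart in the same libraries, so these results are no independent check. The genes daw, CG14253 and CG13857 did not enter the fit that required a mean of at least 5 FPKM.

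**Figure D2:**
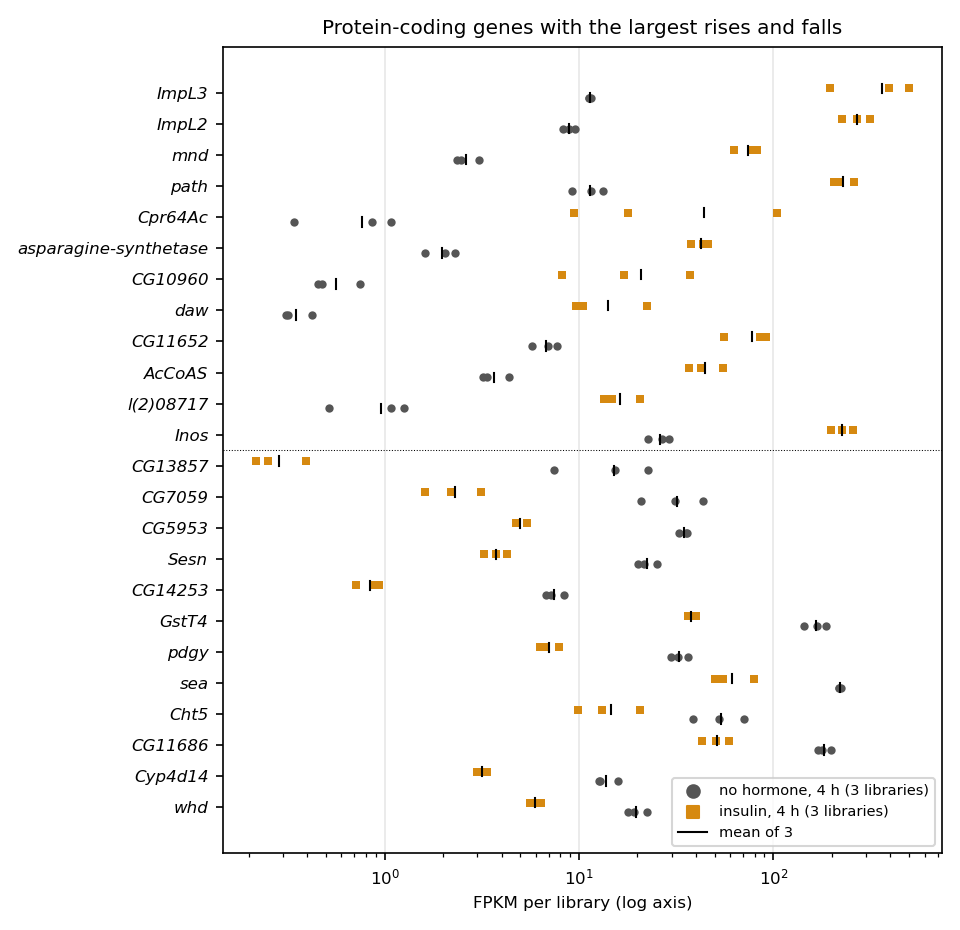
FPKM in each library, on a log axis, of the 12 protein-coding genes with the largest rises (above the dotted line) and the 12 with the largest falls (below it). Circles are the 3 libraries without hormone, squares the 3 with insulin and vertical ticks the means; no gene's groups overlap, which the rule that chose them required.

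The glycolysis list does not hold CG7059, which fell (change -3.28) and whose role was not examined, so the count covers listed genes only. All 11 tested members of the list rose, with a median change of 1.19 beside 0.0138 for all genes. Besides ImpL3, the largest changes were in Hex-A, the hexokinase that traps glucose in the cell, which rose from 27.4, 24.5 and 21.1 FPKM to 106, 69.6 and 91.2 FPKM (change 1.82 ± 0.14), and in the aldolase gene Ald, at 349, 250.5 and 272 FPKM without hormone and 1145, 669 and 844 FPKM with insulin (change 1.58 ± 0.17). Each insulin library stood above each control library, and insulin replicate 2 was the lowest of its group for both genes, as it was for ImpL3. Eno (enolase) rose by 1.26, Gapdh1 by 1.30, Gapdh2 by 1.19 and Pfk (phosphofructokinase) by 1.06, while Pgi and Pgk rose least, by 0.61 and 0.56. Hex-C and Pglym87 did not pass the filter on low values.

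In a list of glucose, amino acid and lactate transport genes, 10 of 13 tested rose, none fell, and the median change was 0.63. The trehalose transporter gene Tret1-1, which takes up the main blood sugar of insects, was at 0.411, 0.451 and 0.629 FPKM without hormone and at 13.8, 5.17 and 9.85 FPKM with insulin (change 2.74 ± 0.25). JhI-21, another amino acid transporter light chain, rose from 40.6 to 137 FPKM (change 1.73), and the heavy chain gene of such transporters, CD98hc, from 119.6 to 275 FPKM (change 1.20). The monocarboxylate transporter out rose by 1.27. Glut1, a glucose transporter, changed by 0.63 with overlapping groups, 5.82, 2.61 and 2.55 against 7.45, 5.05 and 5.39 FPKM. The arginine transporter slif changed by 0.10 and was not called.

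The branches that leave glycolysis for biosynthesis held several large rises. Of 15 tested genes of the pentose phosphate and folate pathways, 9 rose and 2 fell, with a median of 0.39. The mitochondrial folate enzyme Nmdmc rose from 13.3, 12.2 and 12.7 FPKM to 54.8, 72.1 and 55.3 FPKM (change 2.15 ± 0.13), CG3011, now Shmt, the serine hydroxymethyltransferase, from 64.2 to 173 FPKM (change 1.42), and Pgd, an oxidative pentose phosphate enzyme that makes NADPH, from 34.7 to 74.7 FPKM (change 1.08). Zw, the enzyme before it, changed by 0.05 and was not called. The 2 that fell were pug and CG7560, and 1 was called lower when any library other than no hormone replicate 1 was left out. In purine and pyrimidine synthesis 12 of 22 tested genes rose and 3 fell (median 0.34). CG11089 rose from 22.7 to 51.6 FPKM (change 1.15), and ade3 (Gart), which acts in 3 steps of purine synthesis, and r-l, which makes UMP, rose by 0.93 and 0.94. Adk3, an adenylate kinase, fell by 0.87.

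In lipid metabolism, 18 of 22 tested genes rose and 3 fell, with a median of 0.57. The fatty acid synthase gene CG3523 (FASN1 in RefSeq) rose from 27.3, 33.1 and 26.7 FPKM to 213, 227 and 198 FPKM, a change of 2.83 ± 0.13 (limma adjusted p = 1.02e-09). ACC, the acetyl-CoA carboxylase before it, rose from 18.3, 19.1 and 17.3 FPKM to 63.5, 66.2 and 60.2 FPKM (change 1.74 ± 0.07). Their activator in flies and mammals, HLH106 (SREBP), rose from 73.4 to 176 FPKM (change 1.25). Libraries of a group lay close together for all 3 genes, with insulin replicate 3 the lowest of its group each time. SCAP, the SREBP escort, was not called (-0.07). Lpin (lipin), which makes diacylglycerol, rose by 1.06, and the lipid droplet protein gene Lsd-2 by 0.69. The lipase gene bmm (brummer), which empties lipid droplets and in starved flies is raised by FOXO, was at 0.875, 0.768 and 0.527 FPKM without hormone and at 4.25, 4.71 and 4.48 FPKM with insulin (change 1.67 ± 0.26). The 3 that fell were whd, CG2107 (CPT2), also of the carnitine shuttle (-0.32), and the diacylglycerol acyltransferase gene mdy (midway), which makes triglyceride and fell from 53.3 to 20.2 FPKM (change -1.36).

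Mitochondrial genes showed 2 large rises among many small ones. In the citric acid cycle and respiratory chain, 19 of 33 tested genes rose and 1, CG5028, fell (0 without insulin replicate 1, insulin replicate 3 or no hormone replicate 3), with a median of 0.19. Cytochrome c (Cyt-c-p) was at 32.6, 30.6 and 35.6 FPKM without hormone and at 184, 188 and 172 FPKM with insulin, a change of 2.43 ± 0.15. Citrate synthase (kdn) rose from 23.5 to 70.2 FPKM (change 1.53). The next change in the list was 0.49, for CoVa, a cytochrome oxidase subunit. The gene srl (spargel), the fly PGC-1 coactivator, rose from 16.2 ± 0.236 to 31.4 ± 0.137 FPKM (SD, n = 3; change 0.91). Of 75 mitochondrial ribosomal protein genes, 42 rose and 8 fell, led by mRpL53 (change 1.15).

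The nucleolus, where ribosomal RNA is made and ribosomes are assembled, showed a broad rise. Of 51 tested genes for RNA polymerase I, snoRNA-guided modification and ribosome assembly, 47 rose and 4 fell, with a median of 0.87. The snoRNA-protein complex gene hoip rose from 43.8, 51.2 and 53.1 FPKM to 260, 275 and 284 FPKM (change 2.45 ± 0.15), and NHP2, its counterpart in pseudouridylation complexes, from 38.6, 45.3 and 45.5 FPKM to 183, 213 and 196 FPKM (change 2.17 ± 0.10). In both, the groups lay far apart. Nop56 rose by 1.76, Nopp140 by 1.66 and nop5 by 1.59. The RNA polymerase I subunits RpI1 and RpI135 rose from 12.4 to 29.2 FPKM and from 8.63 to 18.5 FPKM (changes 1.17 and 1.02), whereas fibrillarin (Fib), the methyltransferase of box C/D complexes, rose by 0.37. The 4 that fell were Ns2, Ip259, CG4364 and Non1, by between 0.15 and 0.31.

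Genes for the ribosomal proteins themselves stood otherwise. Of 84 tested cytoplasmic ribosomal protein genes, 0 rose and 6 fell, with a median of -0.09. RpLP0 was at 3144, 3241 and 3212 FPKM without hormone and at 2994, 2909 and 2964 FPKM with insulin (change -0.11 ± 0.04; limma adjusted p = 0.0278). RpL32, often used as a reference gene, changed by -0.10 and was not called. The count of 6 depended on the estimate of the spread: 45 were lower in a fit of the 6 libraries alone, 42 with library weights and 1 with no filter, and between 2 and 7 when a library was left out (3 without insulin replicate 2, 2 without no hormone replicate 2 and 3 without no hormone replicate 3). In each of these fits, 0 rose.

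Translation factors split by complex, a grouping made after the values were seen. Of 19 aminoacyl-tRNA synthetase genes, which charge tRNAs, 16 rose and 2 fell, with a median of 0.64. Aats-val rose from 19.1 to 54.9 FPKM (change 1.47) and Aats-asn from 73.3 to 184 FPKM (change 1.31). Of 9 genes for the initiation factor eIF3, 0 rose and 8 fell (median -0.28), most of all eIF3-S10, from 449, 444 and 423 FPKM to 281, 265 and 261 FPKM (change -0.70). The ribosome anti-association factor gene eIF6 and the initiation factor gene eIF-2beta rose by 1.06 and 1.02. Ef1alpha48D and eIF-4B were listed at 0 in all 6 libraries; since a disc uses Ef1alpha48D at a high level, an exact 0 in the table may be a failed estimate.

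The insulin and TOR pathway's own genes fell more often than they rose: of 33 tested, 18 fell and 6 rose, with a median of -0.18. Those raised numbered 3 without insulin replicate 3 or without no hormone replicate 1. The receptor gene InR fell from 10.4, 10.6 and 9.67 FPKM to 3.74, 3.8 and 3.54 FPKM, a change of -1.26 ± 0.10 (limma adjusted p = 1.06e-07). Thor, the 4E-BP gene, fell from 227, 339.8 and 239 FPKM to 125, 133 and 97.8 FPKM (change -1.16 ± 0.20), no hormone replicate 2 being the highest. For both genes every insulin library lay below every control library.

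Partners of TOR inhibition fell too. CG18619 (REPTOR-BP), the binding partner of REPTOR, fell from 332, 363 and 342 FPKM to 117, 137 and 129.8 FPKM (change -1.43 ± 0.06), and CG13624 (REPTOR) itself from 32 to 18.3 FPKM (change -0.78). The TOR inhibitors chrb and scyl, known from hypoxia, fell by 0.88 and 0.63, and the GATOR1 subunit gene CG12090 (Iml1) by 0.60. In a list of 11 tested hypoxia response genes, 4 rose and 6 fell (median -0.46), beside 30.3% and 27.6% of all tested genes. Changes in the kinases were small: Pdk1 rose by 0.46 and Tor by 0.27, Akt1 fell by 0.13, and Rheb, the activator of TOR, was not called (-0.01). The growth regulator Myc (dm) was at 54.6, 50.6 and 51.9 FPKM without hormone and at 56.5, 55.8 and 55.5 FPKM with insulin, a change of 0.10 ± 0.08 that was not called (limma adjusted p = 0.354). The FOXO gene itself, foxo, rose by 0.34.

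Among secreted factors of the pathway, 4 of 5 tested rose. Besides ImpL2 and daw, Ilp8, a relaxin-like peptide by which discs delay pupariation, was at 0.233, 0.248 and 0.152 FPKM without hormone and at 1.91, 2.87 and 3.85 FPKM with insulin (change 1.65 ± 0.37), and Ilp6 changed by 0.48 at about 1 FPKM. Sdr, a secreted decoy of the receptor, changed by 0.40 and was not called (limma adjusted p = 0.0609). Ilp1, Ilp2, Ilp3, Ilp4, Ilp5 and Ilp7 did not pass the filter. In a list of genes known to rise in starved flies or with FOXO, 7 of 20 rose and 7 fell (median 0.02). InR, Thor, Sesn and sug fell while ImpL2, bmm, srl, Ilp6 and Atg1 rose, so the list did not move as a block.

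Autophagy genes fell. Of 26 tested autophagy and lysosome genes, 18 fell and 2 rose, with a median of -0.40. Atg8a, whose product coats autophagosomes, fell from 346, 358 and 347 FPKM to 218, 206 and 203 FPKM (change -0.74 ± 0.05), and Atg6, a subunit of the lipid kinase complex that starts them, from 39.6 to 21.3 FPKM (change -0.86). Pi3K59F, the kinase of that complex, fell by 0.77 and Atg9 by 0.65. The 2 that rose were Atg1, the kinase that TOR restrains (from 17.3 to 24.9 FPKM, change 0.50), and cathD, a lysosomal protease (change 0.20).

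**Figure D3:**
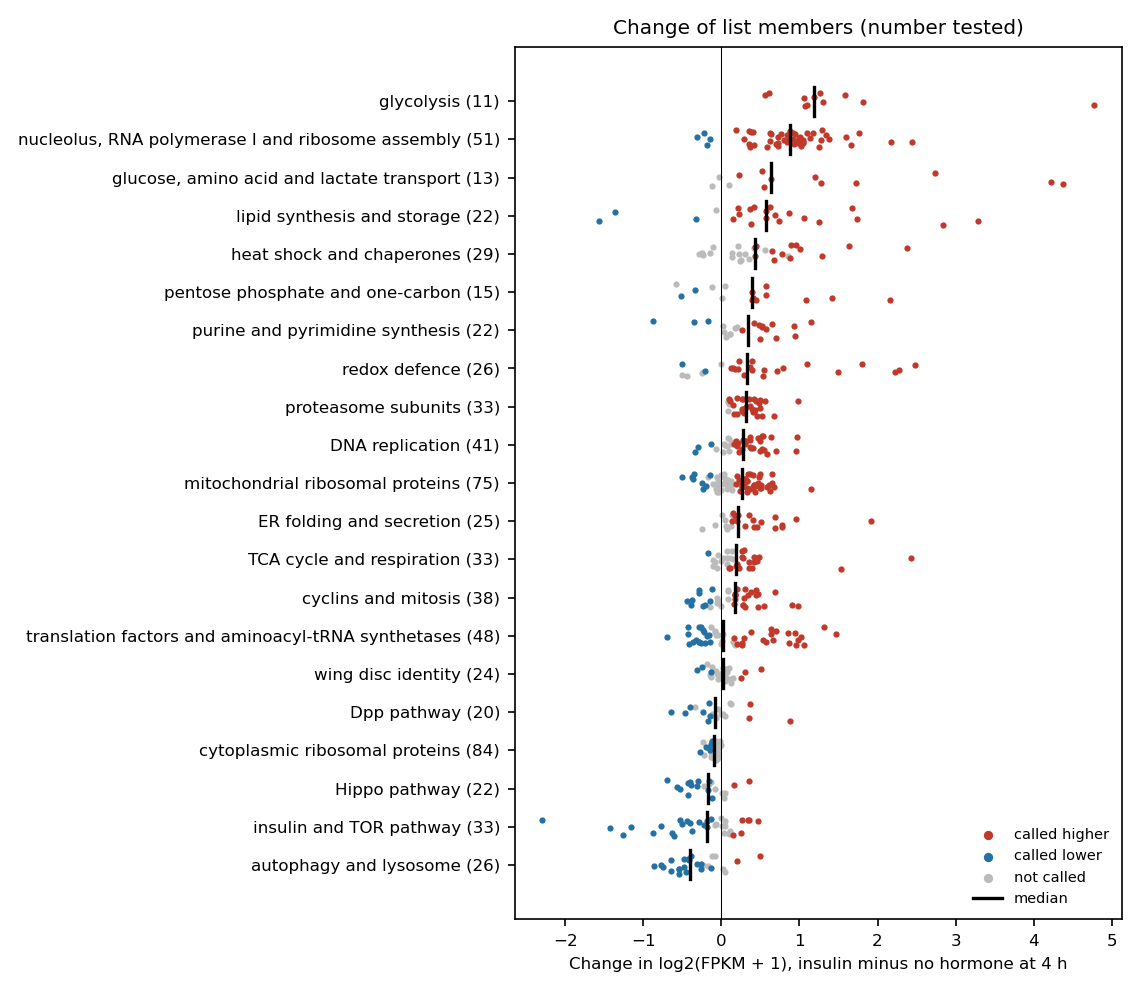
Change in log2(FPKM + 1), insulin minus no hormone at 4 h, of each tested member of 21 gene lists, ordered by the median (black bar); numbers in brackets count tested members. Among these 21 lists, glycolysis has the highest median (1.19) and autophagy and lysosome the lowest (-0.40). Lists not drawn include secreted insulin pathway factors (median 1.65) and hypoxia response (-0.46). Members of the cytoplasmic ribosomal protein list lie within a narrow band just below 0.

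Genes for protein turnover and folding rose by modest amounts. Of 33 tested proteasome subunit genes, 29 rose and 0 fell (median 0.31), from 0.10 for Prosalpha5 to 0.98 for Rpt3R. In the endoplasmic reticulum, 17 of 25 genes rose and 0 fell (median 0.22; 1 fell without no hormone replicate 1). The chaperone gene Hsc70-3 (BiP) rose from 148 to 287 FPKM (change 0.95), and wbl (windbeutel) from 0.871, 0.662 and 0.854 FPKM to 7.39, 5.23 and 4.86 FPKM (change 1.91). Of 29 heat shock and chaperone genes, 13 rose and 0 fell (median 0.43). The cytosolic Hsp90 gene Hsp83 rose from 323, 191 and 180.2 FPKM to 617, 517 and 506 FPKM (change 1.28), no hormone replicate 1 being the highest control. The small heat shock gene Hsp26 was called (1.63) although its groups overlapped, at 16.3, 9.35 and 9.34 against 78.7, 14.2 and 44.2 FPKM. The 6 near-identical Hsp70 copies, among which fragments cannot be assigned with certainty, were not called.

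In redox defence, 19 of 26 genes rose and 2 fell (5 without no hormone replicate 2), with a median of 0.33. The glutathione transferase genes GstE6, GstE3 and GstE1, members of a gene cluster with similar sequences, changed by 2.48, 2.22 and 1.79. GstE6 was at 6.07, 16.4 and 14.7 FPKM without hormone and at 53.3, 92.8 and 65.4 FPKM with insulin. In each group replicate 1 was the lowest for GstE6. Men, the malic enzyme that supplies NADPH, rose from 9.13 to 48.8 FPKM (change 2.28), and Keap1, the inhibitor of the antioxidant factor CncC, from 2.45 to 6.4 FPKM (change 1.10). The 2 that fell were catalase (Cat, -0.50) and Gclm (-0.20).

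Cell cycle genes rose in part. Of 41 DNA replication genes, 27 rose and 3 fell (median 0.28). PCNA, the polymerase clamp, rose from 187 to 279.9 FPKM (change 0.58), and DNApol-alpha60, a primase subunit, from 10.3 to 20.9 FPKM (change 0.97). Mcm2, of the replicative helicase, was not called (0.07). Of 38 cyclin and mitosis genes, 21 rose and 9 fell (median 0.17). The Cdc25 phosphatase gene stg (string), which sets entry into mitosis, rose from 41.1, 49.6 and 47.4 FPKM to 83.6, 99.1 and 92.7 FPKM (change 0.98 ± 0.12), and CycB from 73.8 to 138 FPKM (change 0.90). CycE, which drives entry into S phase, rose by 0.29, while E2f1 and CycB3 fell by 0.28 and 0.38.

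Wing disc identity genes moved little. Of 24 wing disc identity genes, 3 rose (wg, ara and nub) and 3 fell (ap, twi and zfh2), with a median of 0.01. This is well under the share of called genes at large. The gene twi is a myoblast marker and is counted again among those below. Of those that fell, 0 were called without insulin replicate 2, and 1 without insulin replicate 3 or without no hormone replicate 1. The largest of these changes was that of the morphogen wg (wingless), from 17.4, 13.3 and 15.6 FPKM to 23.7, 21.6 and 21.7 FPKM (change 0.51 ± 0.11), while its counterparts hh and dpp were not called (-0.14 and -0.07). In signalling pathways the counts were 7 higher and 7 lower of 26 for Wingless, 3 and 7 of 20 for Dpp, 4 and 7 of 26 for Notch, 3 and 6 of 17 for Hedgehog, and 3 and 6 of 20 for the EGF receptor. The Hippo list, which restrains growth, held 2 higher and 12 lower of 22 (median -0.17). It leaned downward, with 9.09% higher and 54.5% lower beside 30.3% and 27.6% of all tested genes. Over all tested genes 57.9% were called. Both directions together, the share called lay above that in the Hippo list and below it in the other lists of this paragraph. Within these lists the largest fall was that of spi (spitz), the main EGF receptor ligand of flies, from 318, 318 and 329.7 FPKM to 112, 123 and 118 FPKM, a change of -1.45 ± 0.05 (limma adjusted p = 7.58e-11). In the Hippo list, Rassf, an inhibitor of the Hippo kinase, fell most (-0.70).

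Few genes of the steroid response changed with insulin, and most of those tested differed between the hormones. Of 20 tested ecdysone response genes, 5 rose and 0 fell with insulin against no hormone (1 fell without insulin replicate 1), and 12 were lower and 3 higher with insulin than with 20E. Eip75B, an early target of the ecdysone receptor, averaged 2.68 FPKM without hormone and 3.86 FPKM with insulin, was not called between them (limma adjusted p = 0.0543), and averaged 54.5 FPKM with 20E (insulin minus 20E, -3.53; 56.8% of all genes were called in that comparison). Of 37 tested cuticle genes, 12 rose and 6 fell (32.4% and 16.2%, beside 30.3% and 27.6% of all tested genes). Besides Cpr64Ac, the chitin-binding protein gene obst-A rose from 77.6 to 197 FPKM (change 1.33), while verm, a chitin deacetylase, fell from 508 to 289.8 FPKM (change -0.81). The 3 Lcp65Ag copies, whose sequences are nearly the same, rose by 1.06 to 1.20.

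Wound and immune genes gave no common direction. Of 26 wound and JNK response genes, 9 rose and 4 fell (34.6% and 15.4%, beside 30.3% and 27.6% of all tested genes). Gadd45 rose from 8.79 to 21.8 FPKM (change 1.21), and the JNK targets Mmp1 and puc were not called. Of 20 immunity genes, 2 rose and 3 fell (4 and 1 without insulin replicate 3). The cecropin gene CecB changed by 1.09, from 6.37, 5.81 and 4.6 to 19, 16.6 and 6.69 FPKM, and the drosomycin gene Drs by -1.05, from 9.68, 4.09 and 3.98 to 3.51, 2.45 and 0.962 FPKM. Libraries within a group differed by several times for these genes. Of 20 basement membrane and matrix genes, 3 rose (1 without insulin replicate 1 or without no hormone replicate 3) and 6 fell. LanA, a laminin chain, fell from 119 to 66 FPKM (change -0.84).

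Markers of cell types other than the disc epithelium moved within small lists. Of 10 tested markers of the myoblasts that lie on the disc, 1 rose and 3 fell. The factor Him, which holds myoblasts undifferentiated, fell from 27.7, 26 and 23 FPKM to 16.6, 12.6 and 13.5 FPKM (change -0.81), stumps fell by 0.73 and twi by 0.25, whereas Mef2 and zfh1 were not called. Of 6 tracheal markers, 0 rose and 2 fell (btl and verm); of 4 neuron and glia markers, 1 rose and 2 fell; of 6 haemocyte markers, 2 rose (the collagen genes vkg and Cg25C, which other tissues also express) and 1 fell. Single libraries decide several of these counts. Without insulin replicate 1, 1 tracheal marker was called higher and 4 lower. Without insulin replicate 1, no hormone replicate 2 or no hormone replicate 3, 1 haemocyte marker was called higher. Of the neuron and glia markers, 0 were called higher when any library of the 2 groups other than no hormone replicate 2 was left out. Of the myoblast markers, 2 were called higher without insulin replicate 2, and 0 without insulin replicate 3, no hormone replicate 1 or no hormone replicate 2. The part of these cells in the changes above was not tested.

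Short RNAs were read with caution, since libraries were made from poly(A) RNA and a few fragments of so short a gene give a large FPKM. Of 166 tested snoRNAs of the H/ACA and C/D classes, 21 rose and 3 fell (5 fell without no hormone replicate 3). Library weights gave 48 higher and 10 lower. By the naming rule, snoRNA:Me28S-G2703a was listed at 0, 15.8 and 0 FPKM without hormone and at 32.8, 57.9 and 85.4 FPKM with insulin, snoRNA:Me28S-G3253 at 0 in each control library and at 18.5, 16.2 and 16.1 FPKM with insulin, and snRNA:U6:96Aa at 0 in each control library and at 9.5, 8.38 and 16.5 FPKM with insulin. Its near-identical neighbour snRNA:U6:96Ab went the other way, at 8.58, 9.13 and 9.22 FPKM against 0 in each insulin library, so the U6 pair cannot be told apart with certainty. The other named falls were snoRNA:83E4-5, from 20.6, 18.3 and 18.5 FPKM to 3.8, 0 and 0 FPKM, and snoRNA:Me28S-C437, from 45.7, 20.8 and 14 FPKM to 0, 12.8 and 12.5 FPKM. No fold is given against groups listed at 0.

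Beside the fresh disc, the insulin level was higher for some genes and near or below the fresh level for others. Insulin at 4 h differed from uncultured discs in 52.4% of genes (25.8% higher, 26.7% lower). Both comparisons use the insulin libraries, so only levels are set side by side. ImpL3 averaged 11.4 FPKM in uncultured discs, 11.4 FPKM without hormone and 364 FPKM with insulin (insulin minus uncultured, 4.78). CG3523 and ACC were also at the same order in uncultured and hormone-free discs, 35.6 against 29.1 FPKM and 18.5 against 18.2 FPKM, and higher with insulin than in uncultured discs by 2.55 and 1.72. For most of the 12 largest rises named above, hormone-free culture lay below the fresh disc, and the rise over the fresh disc was smaller. The 12 were chosen partly by low values in the hormone-free libraries, which favours this order. ImpL2 averaged 105 FPKM in uncultured discs, mnd 28.9, path 56.2, asparagine-synthetase 19.2 and CG11652 44.0 FPKM. Without hormone these genes were lower than that, with changes (no hormone minus uncultured) of -3.41, -3.04, -2.22, -2.75 and -2.53, in that order. With insulin they were higher than in uncultured discs by 1.35, 1.33, 2.00, 1.11 and 0.78. All 11 glycolysis genes were higher with insulin than in uncultured discs.

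As a group, nucleolar genes were lower in both cultures than in the fresh disc, and by less with insulin. Between hormone-free culture and uncultured discs 70.6% of genes were called (35.1% up, 35.5% down in culture). Of the 51 nucleolar genes, 47 were lower in hormone-free culture than in uncultured discs (median -1.45) and 47 were lower with insulin than in uncultured discs (median -0.53). The gene hoip illustrates this order, with 492 FPKM in uncultured discs, 273 with insulin and 49.3 without hormone. Other genes lay near the fresh level with insulin. Tret1-1, Cyt-c-p and Nmdmc averaged 7.9, 223 and 69 FPKM in uncultured discs, close to their insulin levels of 9.59, 181 and 60.7 FPKM, and were not called between these groups (limma adjusted p = 0.591, 0.131 and 0.238). Sesn likewise averaged 3.35 FPKM in uncultured and 3.75 FPKM in insulin-treated discs, against 22.3 without hormone. Some genes were higher in both cultures than in the fresh disc. Thor and CG18619, at 39 and 59.9 FPKM in uncultured discs, were higher with insulin than there, by 1.61 and 1.08. For autophagy genes, 20 of 26 were higher with insulin than in uncultured discs, and 22 were higher without hormone than in uncultured discs.

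**Figure D4:**
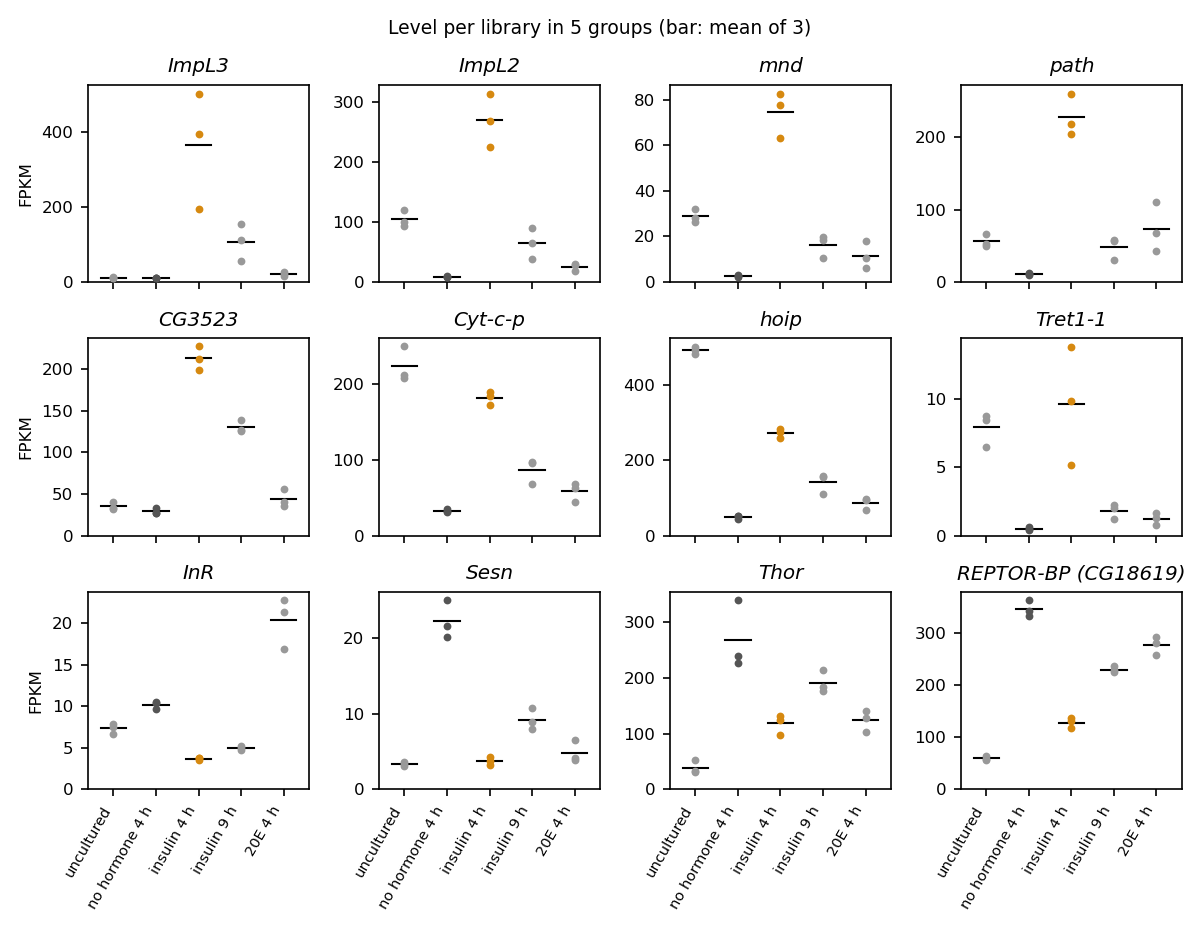
FPKM of 12 genes in each library of 5 groups, each panel on its own linear axis from 0, with bars at the mean of 3 libraries; insulin at 4 h is orange. ImpL3 and CG3523 are high with insulin and low in uncultured and hormone-free discs, hoip and Cyt-c-p are highest in uncultured discs and lowest without hormone, and Sesn and CG18619 are highest without hormone.

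The direct comparison with 20E at 4 h, in which the hormone-free libraries take no part in the difference, called 56.8% of genes, with 29.2% higher and 27.6% lower with insulin. All 11 glycolysis genes were higher with insulin than with 20E (median 2.13). Between 20E and no hormone 30.7% of genes were called (15.7% higher, 15% lower), and 9 of the 11 were lower with 20E. Hex-A averaged 24.3 FPKM without hormone, 23.5 with 20E and 89 with insulin, and Pfk 78.1, 35.8 and 169. Of the 51 nucleolar genes, 45 were higher with insulin than with 20E (median 0.60). With 20E against no hormone, 32 of the 51 were higher and 0 lower (median 0.24). Most of the 12 largest rises with insulin were also called higher with 20E than without hormone. Among them were path, mnd and ImpL2, with changes (20E minus no hormone) of 2.50, 1.68 and 1.40. ImpL3, Cpr64Ac, daw and MFS14 were not called there. The 12 were chosen partly by low values in the hormone-free libraries. Those libraries are also the control here, so the overlap is not independent support.

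In the receptor pathway the hormones stood far apart for InR, at 20.4 FPKM with 20E and 3.7 FPKM with insulin (insulin minus 20E, -2.18; limma adjusted p = 7.57e-10), and Pdk1 was at 50.2 and 9.13 FPKM (-2.30). Some insulin-responsive genes were not called between the hormones. Sesn averaged 4.81 FPKM with 20E and 3.75 with insulin (-0.27; limma adjusted p = 0.182), Thor 125 and 118 FPKM (-0.07; 0.776), and CG10960 10.5 and 20.8 FPKM (0.69; 0.141). A missed threshold does not show that the levels were alike. Ilp8 and wbl, raised by insulin, averaged more with 20E, 7.56 against 2.88 FPKM and 38.1 against 5.82 FPKM (insulin minus 20E, -0.96 and -2.54).

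By 9 h with insulin, most of the genes named first above were lower again. They were chosen partly by high values in the insulin libraries at 4 h, the reference here, which favours a fall. Insulin at 9 h differed from insulin at 4 h in 44.6% of genes (21.3% higher, 23.3% lower). Without a hormone-free group at 9 h, time in culture and insulin cannot be told apart here. ImpL3 fell from 364 to 107 FPKM (9 h minus 4 h, -1.77), ImpL2 from 269.5 to 64.9 FPKM (-2.10), mnd from 74.5 to 16.1 FPKM (-2.18) and path from 228 to 48.4 FPKM (-2.26). Of 51 nucleolar genes, 46 were lower at 9 h than at 4 h (median -0.47), and 8 of 11 glycolysis genes were lower (median -0.55). AcCoAS differed in this respect, at 44.7 FPKM at 4 h and 41.8 FPKM at 9 h, and was not called (-0.08; limma adjusted p = 0.75). CG18619 and Sesn rose between 4 h and 9 h, by 0.84 and 1.10, and InR by 0.35.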

How the data were processed

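RNA was measured in whole wing discs as poly(A)-selected, directional libraries, per the labels' protocols. The authors deposited 1 table of FPKM with a column per library and 15602 genes. The submitters' processing notes name cutadapt, TopHat2, Cufflinks and build BDGP5, without versions or roles, and the annotation, strand setting and scaling are not given in the sources used here. Summed FPKM of the 18 libraries lay between 829275 and 918429. Depth was estimated from the steps of low FPKM values and entered no test. It covers counting error only, and no interval was drawn from it.

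Groups and replicates were taken from titles, and columns from the sample descriptions. The filter required 1 FPKM or more in 3 or more of the 18 libraries and left 8524 genes, of which 7886 are protein-coding and 188 carry no name in the table. All 18 libraries entered 1 limma model of log2(FPKM + 1) by group (version 3.58.1, R 4.3.3; lmFit, eBayes with trend), with Benjamini-Hochberg adjustment over all tested genes and two-sided tests. The group fit shares 1 estimate of spread. The script was tested on simulated data. Named genes were, by size of change, the top 12 protein-coding genes and top 3 other RNAs in each direction, if called, with group ranges apart and a higher group mean of 5 FPKM or more. List members were named besides. The members and lists were chosen with earlier results of these data known, and qm, bor, fdl and Nplp2 were removed from lists after values were seen because their annotation did not match. Lists are described by counts and medians, without a list test. Current names come from the Ensembl gene table, which held 14925 of the identifiers, and from RefSeq. Coordinates are not given because the reference annotation is of another build. Promoter sequences were not analysed here. Alternatives covered the pseudocount, filter, scaling, libraries in the fit, library weights, trend, replicate block and each library left out.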

Additional observations from a re-analysis of the deposited data

How the results depend on the processing

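Under 16 other settings, the counts of called genes in the 4 comparisons stayed within 1.5 times their values. For insulin against no hormone (4935 genes), the lowest count was 4421, with a mean of at least 5 FPKM, and the highest 5771, with library weights; leaving out 1 library gave 4501 to 4756. Quantile normalization gave 2248 higher and 2735 lower. Chosen after seeing the data, leaving out no hormone replicate 1 and uncultured replicate 2, which held the highest gut marker sums, gave 4582. Same-numbered libraries of the 2 groups did not deviate together (r across genes of -0.174, -0.001 and 0.095), so the numbers were not taken as pairs; with the replicate block the count was 5044 (4921 against 20E, 4560 against uncultured, 3907 for 9 h against 4 h). Of the counts over lists, 1326 stayed within 1.5 times and 114 did not, most of them small. For the 6 named short RNAs, 20 of 96 results, 1 per RNA and setting, lost the call. All 20 were of 3 RNAs, snoRNA:Me28S-G3253, snoRNA:Me28S-C437 and snRNA:U6:96Aa, and the cause was not tested. The planned description of promoter motifs was not run, for want of promoter sequences in the material used here. With 3 libraries in a group and no counts, low genes are the least certain.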

Other observations

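Of 11 tested genes of cell death, 5 rose with insulin (45.5%) and 3 fell (27.3%), with a median of 0.32. Over all tested genes these shares were 30.3% and 27.6%, so the share that fell was near that of all genes. The effector caspase gene Drice rose from 38.7 to 63.6 FPKM (change 0.70) and the initiator Dronc from 19.6 to 29.9 FPKM (0.59), whereas another effector, Dcp-1, fell from 92.9 to 57.7 FPKM (-0.68), and the inhibitors Diap1 and Diap2 fell by 0.31 and 0.58. Of 17 tested subunit genes of the vacuolar proton pump, 2 rose (1 without insulin replicate 2, insulin replicate 3 or no hormone replicate 1) and 6 fell with insulin against no hormone. Over all tested genes 30.3% rose and 27.6% fell. Against 20E, 15 of the 17 were higher and 1 lower with insulin. With 20E against no hormone, 1 was higher and 15 were lower (median -0.45), beside 15.7% and 15% of all genes. Of 5 tested circadian clock genes, 3 rose and 1 fell, led by Pdp1, from 7.96 to 14.3 FPKM (change 0.77).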
